A study of Homo sapiens with 6 samples.

Results

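The BCL2 family decides whether the outer mitochondrial membrane is opened, and 10 of its genes were followed here in a colorectal cancer cell line in which ECM1 had been knocked down. The members were BBC3 (which encodes PUMA), PMAIP1 (NOXA), BCL2L11 (BIM), BID, BIK and BAD of the BH3-only class, the effectors BAX and BAK1, and the anti-apoptotic genes BCL2L1 (BCL-XL) and MCL1. All 10 were found by symbol among 20476 gene rows, and all 10 were among the 12576 genes that passed the filter on low counts. The list was selected on the measured log2 fold changes between these same 2 groups, that of BBC3 above all. The differences of the members are therefore given as a description with no test.

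RNA was measured in SW620, a colorectal cancer line grown from a lymph node metastasis. Of 6 libraries, 3 came from cells with a stable hairpin knockdown of ECM1 (shECM1) and 3 from cells with a negative control hairpin (shNC). ECM1 encodes a secreted protein of the extracellular matrix, and the stated aim concerned its bearing on the chemokine CCL20. The labels do not say how many hairpins or clones were used, all 6 libraries are of 1 line, and the labels' tissue entry refers to the line's origin. The table's columns carry letters and numbers that were matched to the sample titles by name, an inference that would reverse every direction if wrong.

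BH3-only proteins carry stress signals. They bind and occupy anti-apoptotic proteins such as BCL-XL and MCL1, and some also activate BAX and BAK1 directly. Activated BAX and BAK1 form pores in the outer mitochondrial membrane, cytochrome c leaves through them, and caspases are switched on. BBC3 is best known for its induction by DNA damage and other stress, and FOXO3 is among the factors that act on it. Colon cancer cells often rely on BCL-XL.

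Library totals ran from 9881720 to 16813951 counts in shECM1 and from 11792872 to 14781799 in shNC. ECM1 itself stood at 14.8, 13.6 and 8.41 CPM in shECM1 replicates 1, 2 and 3, against 38.8, 19.0 and 52.2 CPM in shNC replicates 1, 2 and 3 (CPM, counts scaled to library size with TMM factors). Its log2 fold change was -1.58 ± 0.32 (SE), uncalled by the edgeR quasi-likelihood test (Benjamini-Hochberg adjusted p = 0.0973). Along the first principal component (58.1% of the variance) shNC replicate 2 lay at -8.64, on the side of the shECM1 libraries (-16.6, -17.9 and -23.3) and away from shNC replicates 1 and 3 (25.2 and 41.3). Of 9 colon epithelial markers 8 were tested. EPCAM and KRT8 were high in all libraries, while KRT20 had a mean of 1.13 CPM in shECM1 and 1.40 CPM in shNC. PDGFRA, PTPRC and KDR, which mark fibroblasts, leukocytes and endothelium, had 0 counts throughout, whereas other markers of each type were detected. The summed level of 7 fibroblast markers was 16.7 to 20.9 CPM in shECM1 and 23.5 to 35.5 CPM in shNC, and that of 7 immune markers was 48.0 to 76.9 CPM in shECM1 and 74.1 to 190.9 CPM in shNC. That of 5 endothelial markers was 8.04 to 9.21 CPM in shECM1 and 9.72 to 12.2 CPM in shNC, with VWF at a mean of 6.11 CPM in shECM1 and 7.82 CPM in shNC. Most of the fibroblast sum came from COL1A1 and LUM and most of the immune sum from CD68, and the part of these markers in the results was not tested.

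BBC3 was the member with the largest difference and the single member whose groups did not overlap. Its level was 11.0, 10.1 and 10.2 CPM in shECM1 replicates 1, 2 and 3, against 22.0, 15.9 and 22.3 CPM in shNC replicates 1, 2 and 3. Every shECM1 library lay below every shNC library, and the shECM1 libraries lay within 1 CPM of each other. The values rested on 111 to 170 counts per shECM1 library and 221 to 312 per shNC library. Means were 10.5 ± 0.485 CPM in shECM1 and 20.1 ± 3.63 CPM in shNC (SD, n = 3 each), so the shECM1 mean was 0.521 times the shNC mean, with a fitted log2 fold change of -0.94 ± 0.17 (SE). Of the 12576 tested genes, 341 had a lower log2 fold change. With 1 value per library, less BBC3 RNA in each cell and fewer cells with BBC3 RNA cannot be told apart. Groups did not overlap in 24.4% of the tested genes, with shECM1 lower in 13.2% and higher in 11.2%, and 1 of 10 members belonged to that lower class.

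**Figure D1:**
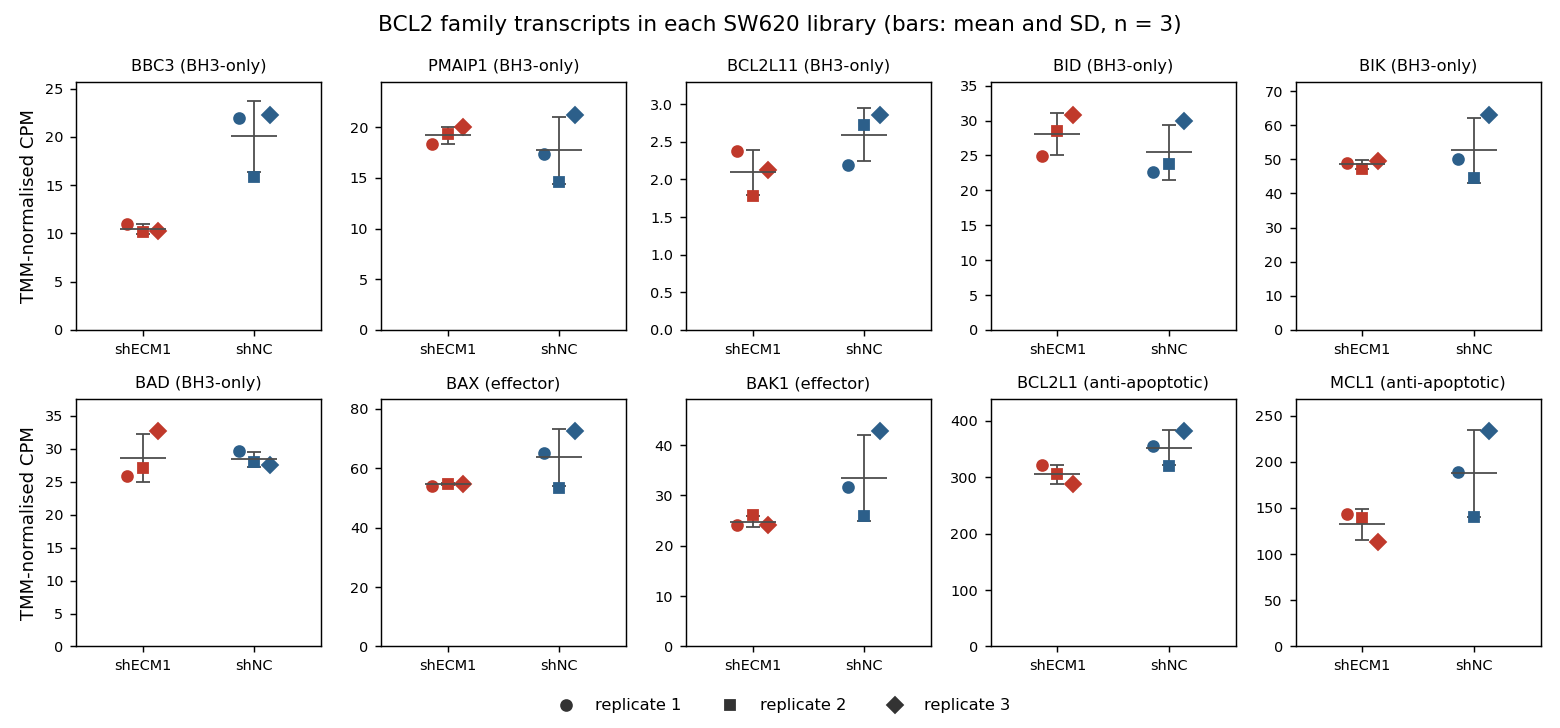
TMM-normalised CPM (y axes, from 0) of the 10 members in the 3 shECM1 and 3 shNC libraries, with 1 point per library, marker shape for the replicate number, and bars for mean and SD. BBC3 is the one panel in which the shECM1 points, at 10.1 to 11.0 CPM, lie wholly below the shNC points, at 15.9 to 22.3 CPM.

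BBC3 lies at chr19:47220822-47232766 (GRCh38) on the minus strand, and GENCODE release 29 lists 4 distinct transcript starts for it. Promoter sequence was looked up for BBC3 and for PMAIP1 and BAX, which are also widely reported to respond to DNA damage, so that the member that stood apart can be set beside 2 that did not. The stretches below are RefSeq sequence (build GRCh38.p14), read 5′ to 3′ on the gene's strand. They end where the farthest upstream GENCODE start begins. Capitals mark matches on either strand to the E-box CACGTG (read by MYC and related factors), the AP-1 site TGAGTCA (read by JUN and FOS dimers) or the SP1 site GGGCGG, and no match overlapped another.
BBC3, minus strand, chr19:47232767-47232917: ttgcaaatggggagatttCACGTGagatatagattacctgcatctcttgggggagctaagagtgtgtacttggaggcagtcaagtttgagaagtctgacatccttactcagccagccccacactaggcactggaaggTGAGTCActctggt
PMAIP1, plus strand, chr18:59899746-59899947: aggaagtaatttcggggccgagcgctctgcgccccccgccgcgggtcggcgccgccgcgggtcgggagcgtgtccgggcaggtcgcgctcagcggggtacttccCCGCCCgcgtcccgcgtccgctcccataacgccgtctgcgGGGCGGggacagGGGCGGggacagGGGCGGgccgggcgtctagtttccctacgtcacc
BAX, plus strand, chr19:48954625-48954814: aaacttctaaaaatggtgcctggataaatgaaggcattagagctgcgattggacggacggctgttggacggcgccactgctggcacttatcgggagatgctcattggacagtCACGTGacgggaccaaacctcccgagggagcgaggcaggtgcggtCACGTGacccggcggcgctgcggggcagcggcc

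In the 250 bases before its RefSeq start, BBC3 had 1 E-box at positions -232 to -227, 1 AP-1 site at -113 to -107 and 0 SP1 sites, counted from the start. An AP-1 match was present in 4.2% of 35116 such windows of all genes, an E-box in 6.34% and an SP1 site in 42.6%. Among the 14 windows of the 8 members that RefSeq's table holds, BBC3's was the 1 with an AP-1 match. BBC3 had 1 window there, against 4 distinct starts in GENCODE, so not every start of BBC3 was searched. BAX had 4 E-boxes in its 250 bases, of which the printed stretch shows the first pair, and 5 of all 35116 windows had at least 4. PMAIP1 had 4 SP1 sites and 0 E-boxes. The letters GTAAACA, a FOXO site, occurred in 1 member window, that of BCL2L11, and in 2.98% of all windows. BIK and MCL1 are named only, without a window. These matches describe the letters in 1 window per listed start and are not evidence of binding.

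The other BH3-only genes differed less. PMAIP1, whose product NOXA occupies MCL1, had 18.4, 19.3 and 20.0 CPM in shECM1, against 17.3, 14.6 and 21.2 CPM in shNC. The shECM1 values lay inside the shNC range, and the log2 fold change was 0.12 ± 0.16 (SE). BID, which caspase-8 cleaves to link death receptors to mitochondria, had 24.9, 28.5 and 30.9 CPM in shECM1, against 22.6, 23.8 and 30.0 CPM in shNC. Its groups overlapped at a log2 fold change of 0.14 ± 0.15 (SE).

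BIK, a BH3-only protein of the endoplasmic reticulum, had 49.0, 47.0 and 49.6 CPM in shECM1, against 50.2, 44.6 and 63.1 CPM in shNC. Its shECM1 libraries were close together and inside the range of shNC, with a log2 fold change of -0.12 ± 0.14 (SE). BAD, which binds BCL-XL unless phosphorylated, had 25.9, 27.1 and 32.7 CPM in shECM1, against 29.7, 28.0 and 27.5 CPM in shNC. Here the shNC libraries were the tighter group and lay inside the shECM1 range, at a log2 fold change of 0.01 ± 0.13 (SE). BCL2L11, whose product BIM binds all the anti-apoptotic proteins, was the lowest member, with 2.38, 1.79 and 2.12 CPM in shECM1, against 2.20, 2.73 and 2.86 CPM in shNC. It rested on 24 to 30 counts per shECM1 library and 26 to 40 per shNC library, and its log2 fold change of -0.33 ± 0.27 (SE) was little larger than its error.

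BAX and BAK1, the pore-forming effectors, had lower means in shECM1 but overlapping groups. BAX stood at 54.2, 54.8 and 54.8 CPM in shECM1, against 65.1, 53.5 and 72.5 CPM in shNC. The shECM1 libraries agreed within 1 CPM, and shNC replicate 2 was just below them. BAK1 stood at 24.2, 26.1 and 24.1 CPM in shECM1, against 31.7, 25.9 and 42.8 CPM in shNC. In shNC replicate 2 BAK1 was inside the shECM1 range, while shNC replicate 3 held the highest value. Log2 fold changes were -0.22 ± 0.13 (SE) for BAX and -0.43 ± 0.17 (SE) for BAK1.

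The anti-apoptotic members were the most abundant by CPM. BCL2L1 stood at 321.1, 306.7 and 288.3 CPM in shECM1, against 355.5, 320.1 and 381.8 CPM in shNC. The groups met at shNC replicate 2, which was just below the highest shECM1 library. Its log2 fold change was -0.21 ± 0.10 (SE). MCL1, whose protein turns over quickly, stood at 143.8, 139.6 and 113.0 CPM in shECM1, against 188.9, 139.9 and 233.1 CPM in shNC. Means were 132.1 ± 16.7 CPM in shECM1 and 187.3 ± 46.6 CPM in shNC (SD, n = 3 each). MCL1's shNC replicate 2 lay between the shECM1 libraries, and its log2 fold change of -0.50 ± 0.17 (SE) was the second most negative of the members.

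Over the 10 members, 7 log2 fold changes were negative and 3 positive, with a median of -0.21. Over all 12576 tested genes, 6110 were negative and 6466 positive, with a median of 0.01. By class, 3 of 6 BH3-only genes, both effectors and both anti-apoptotic genes were negative. With Benjamini-Hochberg adjustment, edgeR called 0% of tested genes, members included, and 14.2% were lower and 8.31% higher at an unadjusted p under 0.05. DESeq2 called 5.57% of tested genes, 4.69% lower and 0.883% higher, with 1 member among the lower ones. Without the count filter, edgeR called 3.08% of genes, 2.83% lower and 0.256% higher, and again 1 member was lower. Since the members were selected on this contrast, nothing is read from these counts.

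shNC replicate 2 was closer to the shECM1 mean than to the mean of the other shNC libraries for 8 of the 10 members. It was the lowest shNC library for 7 of the 10 members and lay within the shECM1 range for 4 of them, namely BAD, BAK1, BCL2L1 and MCL1. Without it, edgeR called 23.9% of tested genes, 14.1% lower and 9.73% higher, and 4 members were on the lower side of that threshold. DESeq2 without it called 21.5%, 12.9% lower and 8.55% higher, with 3 members lower. edgeR with a GC offset and without it called 26.7%, 12.8% lower and 13.9% higher, with 2 members lower and 1 higher. These fits leave out the control library that lay with shECM1 and use the contrast the members were selected on, so nothing is read from the members' counts. Log2 fold changes without that library were -1.07 for BBC3, -0.66 for MCL1, -0.57 for BAK1 and -0.32 for BAX. Leaving out shNC replicate 3, which held the highest value of BBC3, PMAIP1, BCL2L11, BIK, BAX, BAK1, BCL2L1 and MCL1, gave -0.85 for BBC3, -0.32 for MCL1, -0.21 for BAK1 and -0.12 for BAX, and 0.27 for PMAIP1.

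**Figure D2:**
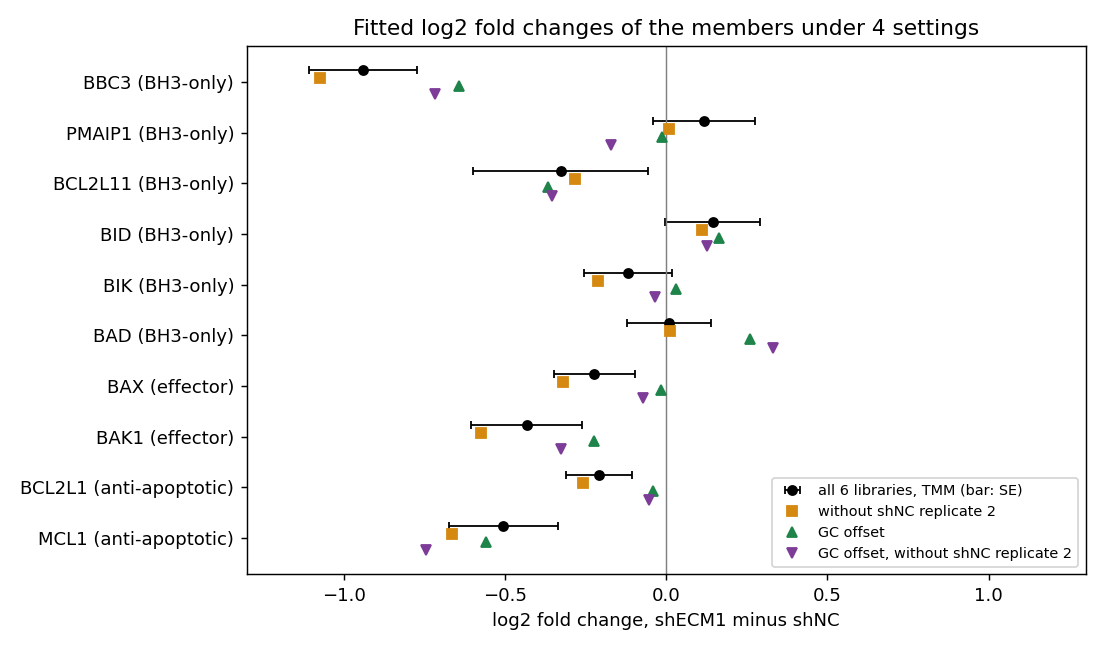
Log2 fold changes (x axis, shECM1 minus shNC) of the members from 4 fits: all 6 libraries with SE bars, without shNC replicate 2, with an offset for transcript GC content, and with both. BBC3 ran from -1.07 to -0.64 and stayed below 0, while PMAIP1 and BIK lay on both sides of 0.

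Log2 fold changes over all tested genes varied with transcript GC content, and the GC trend differed between libraries of the same group. Among tested genes under 40% GC the median log2 fold change was 0.14, and among the 507 tested genes of at least 65% GC it was -0.23. BBC3, at 69.7% GC, was in that last class, and 50 tested genes had a higher GC content. With a per-library GC trend as an offset, its log2 fold change was -0.64, against -0.94 without the offset. In the class of at least 65% GC the median gene deviated from its mean over the 6 libraries by -0.18, -0.24 and 0.12 (log2) in shECM1 replicates 1, 2 and 3, and by 0.22, 0.00 and 0.15 in shNC replicates 1, 2 and 3. The part of GC content in the BBC3 difference was not tested beyond this offset.

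The GC offset brought the effectors and BCL2L1 closer to 0. BAX was at -0.02, BCL2L1 at -0.04 and BAK1 at -0.22 with it. MCL1, at 45.1% GC, had -0.56 with the offset, which was no closer to 0 than without it. BAD, at 66.3% GC, had 0.26 with the offset, PMAIP1, at 37.2% GC, had -0.01, and BIK had 0.03, so the last 2 changed sign. The median over the members was -0.03 with the offset.

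**Figure D3:**
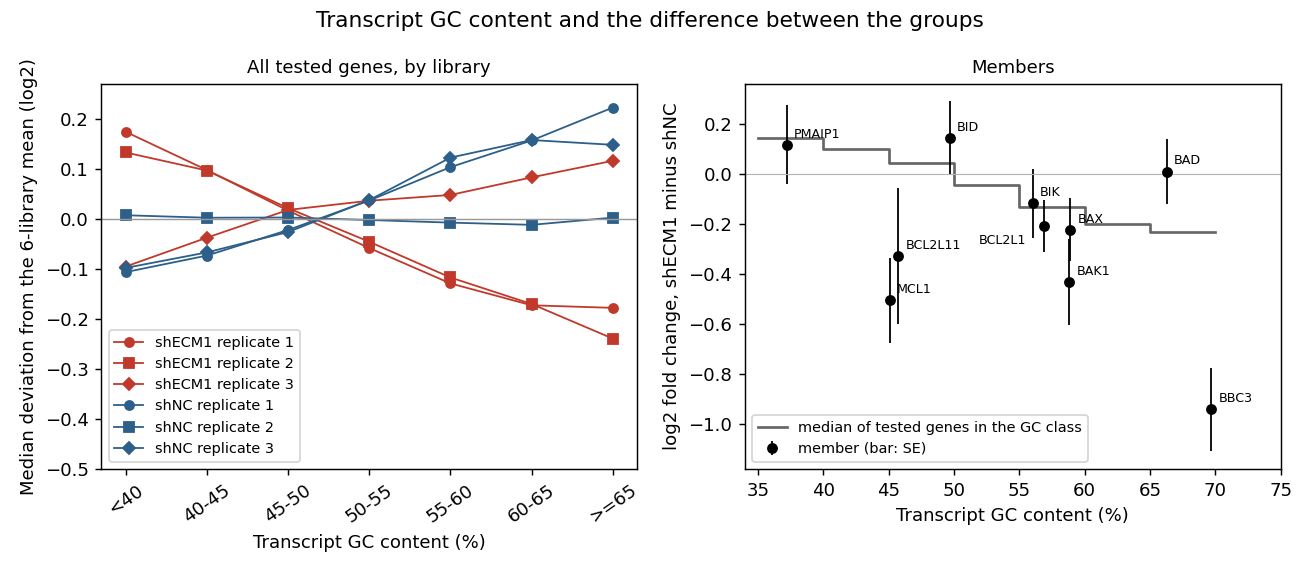
Left, the median deviation of tested genes from their mean over the 6 libraries (log2) in 7 classes of transcript GC content, with 1 line per library. Right, each member's log2 fold change with SE bars against its GC content, with the median of the tested genes in each class as a step line; BBC3, at 69.7% GC and -0.94, lies below the step at -0.23, and BAD, at 66.3% GC, lies above it.

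Set per kilobase of exon so that levels can be compared between genes, the members spanned from 0.268 to 115.2 CPM per kilobase. BCL2L1 ranked first in all 6 libraries, with 96.9, 92.5 and 87.0 CPM per kilobase in shECM1 and 107.3, 96.6 and 115.2 CPM per kilobase in shNC. BIK, MCL1 and BAX followed in that order in every library. BAD was above BAK1 in 5 of 6 libraries, with overlapping ranges, and PMAIP1 followed them throughout. The order of BID and BBC3 depended on the library. BID was above BBC3 in all 3 shECM1 libraries and in shNC replicate 2, and BBC3 was above BID in shNC replicates 1 and 3. BCL2L11 was last in every library, at 0.268 to 0.358 CPM per kilobase in shECM1 and 0.330 to 0.430 in shNC. This scale assumes reads along the whole exon length, and the labels describe both total RNA and 3' droplet libraries.

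**Figure D4:**
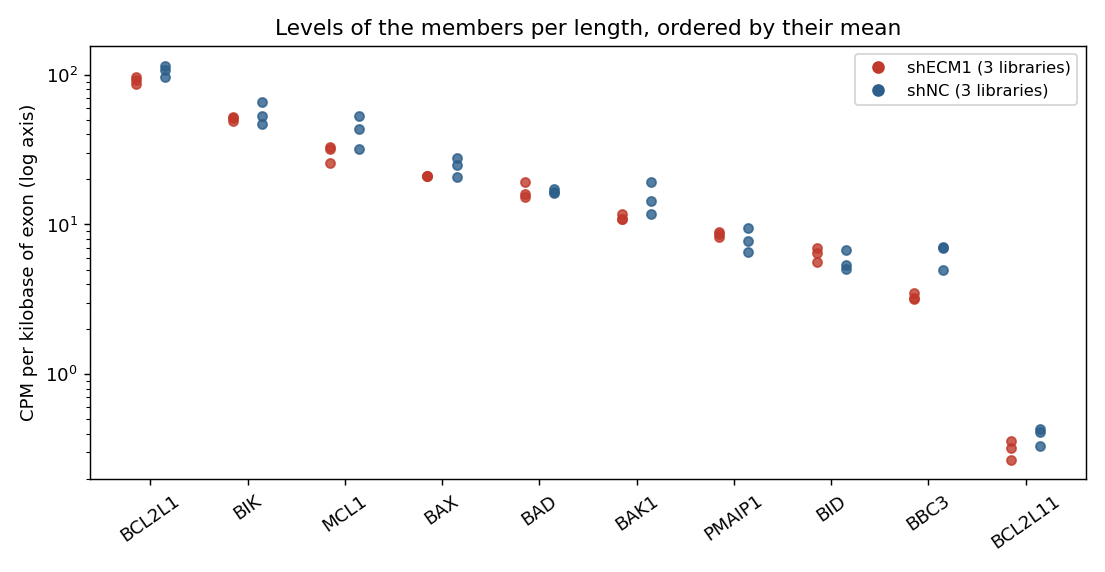
CPM per kilobase of exon (y axis, log scale) of the members, ordered by their mean over the 6 libraries, with shECM1 points left of shNC points. BCL2L1 is highest at 87.0 to 115.2 and BCL2L11 lowest at 0.268 to 0.430. BBC3 lies below BID in all shECM1 libraries and in shNC replicate 2, and above it in shNC replicates 1 and 3.

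Shares within the family do not depend on the library scaling. BBC3 made up 1.41%, 1.32% and 1.37% of the members' summed level per kilobase in shECM1 replicates 1, 2 and 3, against 2.47%, 2.07% and 2.18% in shNC replicates 1, 2 and 3, and the groups did not overlap. The share of PMAIP1 was higher in shECM1, with 3.34%, 3.58% and 3.81% in shECM1, against 2.77%, 2.71% and 2.95% in shNC, again without overlap. That of BID did not overlap either, with 2.28%, 2.66% and 2.95% in shECM1, against 1.81%, 2.21% and 2.09% in shNC. The members were selected on this contrast, and how often such shares separate in other sets of genes was not tested. PMAIP1 and BCL2L1, the largest part of the sum, differ in GC content (37.2% and 56.9%), and their log2 fold changes of 0.12 and -0.21 were -0.01 and -0.04 with the GC offset. The shares and ratios given here carry no such offset. The ratio of BBC3 to PMAIP1 per kilobase was 0.383 ± 0.0337 in shECM1 and 0.797 ± 0.0825 in shNC (SD, n = 3 each).

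BBC3 set against BCL2L1, the most abundant protein gene it opposes, gave ratios per kilobase of 0.0357, 0.0344 and 0.0370 in shECM1, against 0.0644, 0.0516 and 0.0609 in shNC. These did not overlap. The levels of BBC3 were themselves separated and the members were selected on this contrast, so nothing is read from the separation of the ratios. The ratio of BAX to BCL2L1 was 0.229 ± 0.0136 in shECM1 and 0.231 ± 0.015 in shNC (SD, n = 3 each), and the 2 groups covered nearly the same range. The anti-apoptotic pair together held 50.8% ± 2.54 of the summed level in shECM1 and 53.1% ± 0.695 in shNC, and the BH3-only class held 35.8% ± 2.31 in shECM1 and 32.8% ± 0.582 in shNC (SD, n = 3 each). The BH3-only shares did not overlap, at 34.3%, 34.7% and 38.5% in shECM1, against 32.2%, 33.3% and 32.9% in shNC. A higher share is not a higher level. Log2 fold changes were negative for 3 of 6 BH3-only genes, both effectors and both anti-apoptotic genes. BIK alone held 21.2% ± 0.838 of the summed level in shECM1 and 19.6% ± 0.896 in shNC (SD, n = 3 each). How often such class shares separate in other sets of genes was not tested. The anti-apoptotic shares did overlap.

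Some members share exon sequence with other genes, and whether counting used strand is not given in the sources used here. BAD shares 23.7% of its exon bases with GPR137 on the opposite strand, which had 14.6 ± 2.19 CPM in shECM1 and 15.3 ± 2.45 CPM in shNC (SD, n = 3 each). BCL2L1 shares 43.0% of its exon bases with ABALON, an antisense gene that has no row in the count table, and BCL2L11 shares 10.9% with MIR4435-2HG, which has none either. The level of BAD, BCL2L1 and BCL2L11 is uncertain to that extent. BBC3 shares 2.52% of its exon bases with a microRNA gene on the opposite strand and 2.39% with one on its own strand.

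The genes whose profile over the 6 libraries was closest to that of BBC3, by root mean square distance of centred log2 CPM among 9427 genes of mean log2 CPM of at least 3, were BCAM, ARVCF, ARHGAP40, KRT15 and EGR1. BCAM, a laminin receptor, was at a distance of 0.0468, with 14.5, 13.6 and 14.5 CPM in shECM1, against 30.2, 21.2 and 32.2 CPM in shNC. Distances were 0.0622 for ARVCF, 0.0910 for ARHGAP40, 0.0946 for KRT15 and 0.0976 for EGR1. Each had its lowest shNC value in replicate 2, as BBC3 did, which follows from choosing them by likeness to BBC3's profile. Their transcript GC contents ran from 55.4% to 65.9%.

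Around the members, 7 lists of other apoptosis genes were tested over all genes, and edgeR called 0 genes in each after Benjamini-Hochberg adjustment. Counts at an unadjusted p under 0.05 in these lists stand beside 14.2% lower and 8.31% higher over all tested genes. The lists were chosen with earlier results of these data known, so their counts, here and below, are a description only. Of 13 other BCL2 family genes 8 were tested, all 8 were negative with a median of -0.31, and 2 were lower at an unadjusted p under 0.05 (14.2% of all tested genes). BCL2 itself did not pass the count filter and had at most 0.655 CPM. BNIP3L, a mitophagy receptor, averaged 108.4 ± 2.25 CPM in shECM1 and 133.3 ± 25.0 CPM in shNC (log2 fold change -0.30, adjusted p = 0.207). BCL2L12 averaged 22.2 ± 0.4 CPM in shECM1 and 29.6 ± 2.25 CPM in shNC (log2 fold change -0.42, edgeR adjusted p = 0.112), and in both genes every shECM1 library lay below every shNC library. BCL2L13 had a log2 fold change of -0.04.

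The list of mitochondrial and caspase genes was mostly positive, with 13 of 16 genes above 0 and a median of 0.12. At an unadjusted p under 0.05, 2 were higher and 0 lower. CYCS, which encodes cytochrome c, averaged 352.2 ± 35.8 CPM in shECM1 and 268.6 ± 21.7 CPM in shNC (log2 fold change 0.39, edgeR adjusted p = 0.108). The groups of CYCS did not overlap. DESeq2 called CYCS higher (adjusted p = 0.037), and edgeR without shNC replicate 2 called it as well (adjusted p = 0.0108). Over all tested genes, these 2 fits called 0.883% and 9.73% higher. With the GC offset edgeR did not call CYCS (log2 fold change 0.29, adjusted p = 0.168), nor without shNC replicate 3 (0.34, adjusted p = 0.359). VDAC2, a mitochondrial porin that binds BAK1, had a log2 fold change of -0.16. Of 5 tested inhibitors of apoptosis 4 were negative and 0 had an unadjusted p under 0.05, with BIRC6 at 0.02, BIRC2 at -0.03, BIRC5 at -0.15 and BIRC3 at -0.42. Of 11 tested death receptor genes 8 were negative, 2 of them lower at an unadjusted p under 0.05, and 1 was higher at that level. TNFRSF10B, a receptor for TRAIL, and TNFRSF1A, a receptor for TNF, had log2 fold changes of -0.33 and -0.42 (edgeR adjusted p = 0.151 and 0.130).

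Other genes of the DNA damage and stress response had log2 fold changes of both signs. Of 23 tested, 15 were negative and 8 positive, with a median of -0.26, and 9 were lower and 2 higher at an unadjusted p under 0.05 (14.2% and 8.31% of all tested genes). CDKN1A, which encodes the cell cycle inhibitor p21, averaged 3.57 ± 1.61 CPM in shECM1 and 12.8 ± 7.58 CPM in shNC (log2 fold change -1.87, edgeR adjusted p = 0.0973). Its shNC libraries stood at 14.9, 4.38 and 19.1 CPM, and the second lay within the shECM1 range. PLK3, a stress kinase, had a log2 fold change of -0.80 (edgeR adjusted p = 0.115), GDF15, a secreted stress factor, -0.44 (edgeR adjusted p = 0.116), and PERP, a membrane protein, -0.23 (edgeR adjusted p = 0.315). DESeq2 called 4 of the list lower and 0 higher, against 4.69% lower and 0.883% higher over all tested genes. Without shNC replicate 2, edgeR called 11 of the list lower and 2 higher, against 14.1% lower and 9.73% higher over all tested genes.

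Among 12 tested factors reported to act on BBC3, 8 were negative and 4 positive, and 4 were lower and 2 higher at an unadjusted p under 0.05 (14.2% and 8.31% of all tested genes). FOXO3, singled out after its values were seen, had a log2 fold change of -0.28. RELA, an NF-kB subunit, averaged 98.1 ± 4.49 CPM in shECM1 and 134.0 ± 19.0 CPM in shNC (-0.45, edgeR adjusted p = 0.104), and JUN, an AP-1 subunit, averaged 92.8 ± 7.58 CPM in shECM1 and 135.5 ± 34.1 CPM in shNC (-0.55, edgeR adjusted p = 0.117). MYC averaged 537.9 ± 116.1 CPM in shECM1 and 332.4 ± 145.8 CPM in shNC (0.69, edgeR adjusted p = 0.151), and ATF4 had a log2 fold change of 0.09.

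Of 19 kinases, ubiquitin ligases and binding partners that act on the members after translation, 13 were negative and 6 positive, and 4 were lower at an unadjusted p under 0.05. PIM1, a kinase that phosphorylates BAD, had the smallest p of the list, at 1.84 ± 1.09 CPM in shECM1 and 5.73 ± 3.25 CPM in shNC (log2 fold change -1.69, edgeR adjusted p = 0.108). The PIM1 groups overlapped, with shNC replicate 2 at 2.51 CPM inside the shECM1 range of 1.02 to 3.08 CPM. In shECM1 the values of PIM1 rested on 14 to 31 counts per library. RPS6KA1, another BAD kinase, had -0.32 (edgeR adjusted p = 0.196). HUWE1, a ubiquitin ligase of MCL1, had -0.16 and YWHAZ, a 14-3-3 protein that holds phosphorylated BAD, had -0.08.

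**Figure D5:**
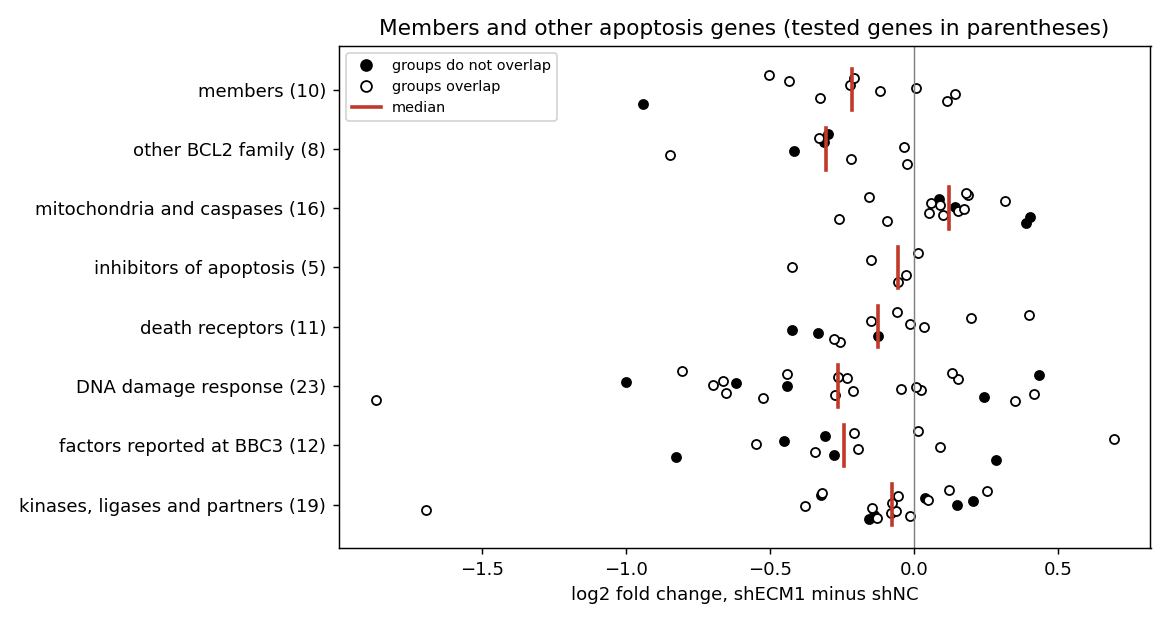
Log2 fold changes (x axis, shECM1 minus shNC) of the 10 members and of the tested genes in 7 lists of other apoptosis genes, with 1 point per gene, filled where the groups do not overlap, and a bar at each list's median. The median was -0.21 for the members, -0.31 for the other BCL2 family genes and 0.12 for the mitochondrial and caspase genes.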

How the data were processed

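The deposited values are raw counts, 1 whole number per gene and library, in 6 libraries. The tools named are STAR, featureCounts, fastp, Seurat and DESeq2, and the builds GRCh38 and hg38, per the submitters' processing notes. What each tool did, with which settings and annotation, is not given in the sources used here. The labels describe total RNA as well as droplet single-cell libraries, and each column was analysed as 1 library. No label says that replicates were separate cultures, so p-values may measure technical spread alone.

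Symbols were found for 20462 of 20476 identifiers. In R 4.3.3, edgeR 4.0.16 was used with filterByExpr, TMM factors and the quasi-likelihood test, with no covariate and Benjamini-Hochberg adjustment over 12576 genes at a threshold of 0.05. SE was taken as the absolute log2 fold change over the root of the F statistic. CPM per kilobase used the union of exons in GENCODE release 29. GC content is that of each gene's longest transcript. Log2 CPM used a prior count of 2.

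The members and all lists were chosen with earlier results of these data known. The text names all members, the 2 genes of highest CPM and the 2 of smallest p in each list where 0 passed, and the 5 genes closest to BBC3. Alternatives were other scalings and filters, DESeq2 1.42.0, limma-voom 3.58.1, other dispersion fits, a loess GC offset (span 0.3), the replicate block, and leaving out each library. The edgeR, DESeq2 and limma-voom fits were tested on simulated data. The groups' replicate numbers did not pair the samples. Some results that the naming rule would give are not reported here.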

Additional observations from a re-analysis of the deposited data

How the results depend on the processing

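Over 20 alternatives, BBC3 kept a negative log2 fold change in 20, between -1.08 (DESeq2 without shNC replicate 2) and -0.64 (replicate block with GC offset). BCL2L11 (19 of 19, where its counts passed the filter), BID, BAX, BAK1, BCL2L1 and MCL1 (20 of 20 each) also kept their sign, whereas PMAIP1 and BIK kept it in 17 and BAD in 18. The number of negative members stayed within 1.5 times of 7. The number of genes called was 0, against 505 with no count filter, 701 with DESeq2, 3382 with the GC offset without shNC replicate 2, 2732 with DESeq2 without shNC replicate 2, and 0 to 3037 when 1 library was left out, where shNC replicate 2 gave the 3037. The cause was not tested. ECM1 was called with no count filter (-1.58), DESeq2 (-1.58), the GC offset without shNC replicate 2 (-1.71), DESeq2 without it (-1.89) and edgeR without it (-1.88), and ran from -1.88 to -1.24 over single libraries left out. Calls in the lists, 0 in each case with all libraries and edgeR, were as follows. With no count filter there were 2 among DNA damage response genes and 1 among kinases, ligases and partners. DESeq2 gave 1 among mitochondrial and caspase genes, 4 among DNA damage response genes, 2 among factors at BBC3 and 1 among kinases, ligases and partners. Leaving out 1 library gave 0 to 2 in the other BCL2 family, 0 to 2 among mitochondrial and caspase genes, 0 to 3 among death receptors, 0 to 13 among DNA damage response genes, 0 to 6 among factors at BBC3 and 0 to 4 among kinases, ligases and partners, the highest always without shNC replicate 2. The GC offset without that library gave 2, 4, 1, 3, 11, 8 and 3, and DESeq2 without it gave 2, 1, 0, 3, 13, 6 and 4, in the order other BCL2 family, mitochondrial and caspase genes, inhibitors, death receptors, DNA damage response genes, factors at BBC3, and kinases, ligases and partners.

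With the replicate number as a block, 0 genes were called and BBC3 was at -0.92. Same-numbered libraries deviated from their group means with correlations of -0.07, -0.05 and -0.18, so the numbers gave no pairing. In the block fit 2414 genes had an unadjusted p under 0.05, against 2827 without it. Depth limited BCL2L11 most, at 24 to 40 counts per library, and intervals from counting error do not cover differences between cultures.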
